A study of Mus musculus with 20 samples.

Results

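The latrophilins, the FLRTs and the teneurins were followed in striatal RNA of High-Active and Control mice. The genes were those whose Ensembl identifier carries one of 10 symbols, Adgrl1, Adgrl2 and Adgrl3 for the latrophilins, Flrt1, Flrt2 and Flrt3 for the FLRTs, and Tenm1, Tenm2, Tenm3 and Tenm4 for the teneurins. Adgrl3 is the current symbol of Lphn3. These are 10 of the 39179 genes listed in each count table, and all 10 were measured above the filter on low counts.

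High-Active mice come from a line bred for high activity in the home cage, and Control mice from the unselected line started with the same founders, an inter-cross of 8 inbred strains. All 20 mice were adult males of generation 17, about 6.5 months old, and were injected intraperitoneally with saline or with 0.25 mg/kg d-amphetamine and killed 2 hours later. Each line and treatment together formed a group of 5 mice, 4 groups in all, and the labels name no transgene or targeted allele. The whole striatum of both sides was dissected from a slab, so each library holds RNA of all striatal cells and of any adjoining tissue.

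Latrophilins are adhesion G protein-coupled receptors that sit at synapses. Their extracellular part binds FLRTs, single-pass membrane proteins with leucine-rich repeats, and teneurins, large single-pass proteins, on the facing membrane. Such pairs are known for axon guidance and for the formation of excitatory synapses, and ADGRL3 has been linked to attention-deficit/hyperactivity disorder in people.

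Counts on genes summed to between 32388971 and 53710713 in a mouse, with medians of 40460127.5 in Control and 44088747 in High-Active mice. Of 14792 genes tested, 1122 were higher and 1056 lower in High-Active mice. The labels give the parents of each mouse. There were 5 pairs of parents behind the 10 High-Active mice and 8 behind the 10 Control mice, so 13 of the 20 mice had a full sibling in the experiment and are not fully independent. All 12 markers of medium spiny neurons, the main striatal neurons, were detected. The 12 cortical excitatory neuron markers summed to 531.8 to 1305 CPM (counts scaled to a common library size) in Control and 335 to 1406 CPM in High-Active mice, and 5 of them fell and none rose in High-Active mice. Of 8 oligodendrocyte markers 2 rose, and of 6 astrocyte markers 3 rose. Of the medium spiny neuron markers 11 of 12 had a negative difference and 1 fell, and all 6 thalamus and septum markers had a positive difference (median 0.65 on the log2 scale), of which 1 rose. No marker of these 5 lists was at 0 in every mouse. In bulk tissue fewer cells of a type and less RNA per cell cannot be told apart.

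Adgrl3 lies on the plus strand of chromosome 5 (GRCm38, 81020138 to 81825133), Adgrl2 on the minus strand of chromosome 3 (148815583 to 148990555) and Flrt3 on the minus strand of chromosome 2 (140650914 to 140671469). Adgrl1 and Tenm3 are on chromosome 8, Tenm4 on 7, Tenm2 on 11, Flrt2 on 12, Flrt1 on 19 and Tenm1 on X, all annotated as protein coding. RefSeq start regions are shown for 3 members whose levels carry most of what follows, Adgrl3, whose level spread widely in High-Active mice, and Adgrl2 and Flrt3, which varied together in them. Each window runs from 250 bases before to 50 bases after a RefSeq start (GRCm38.p6), 5′ to 3′ on the gene's strand, with capitals for matches to a searched motif.
Adgrl3 (chr5:81020321-81020620, plus strand, the most upstream of 3 entries): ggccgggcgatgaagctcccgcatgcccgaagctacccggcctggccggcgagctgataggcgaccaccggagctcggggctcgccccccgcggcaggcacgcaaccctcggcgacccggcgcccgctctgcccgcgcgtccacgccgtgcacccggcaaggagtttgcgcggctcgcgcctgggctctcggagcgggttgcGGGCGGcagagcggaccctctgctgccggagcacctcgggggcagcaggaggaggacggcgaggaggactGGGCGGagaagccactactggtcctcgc
Adgrl2 (chr3:148954586-148954885, minus strand): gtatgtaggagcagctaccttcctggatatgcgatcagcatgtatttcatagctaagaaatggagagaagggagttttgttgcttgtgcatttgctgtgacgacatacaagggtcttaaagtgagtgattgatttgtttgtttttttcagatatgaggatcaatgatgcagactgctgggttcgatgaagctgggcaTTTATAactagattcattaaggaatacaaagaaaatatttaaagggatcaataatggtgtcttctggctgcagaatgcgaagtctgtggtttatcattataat
Flrt3 (chr2:140671427-140671726, minus strand): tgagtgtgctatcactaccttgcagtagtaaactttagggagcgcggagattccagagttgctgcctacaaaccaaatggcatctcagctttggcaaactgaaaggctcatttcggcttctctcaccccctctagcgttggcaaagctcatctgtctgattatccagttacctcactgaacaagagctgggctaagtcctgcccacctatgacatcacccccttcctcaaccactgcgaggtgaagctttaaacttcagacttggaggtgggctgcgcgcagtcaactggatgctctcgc
The Adgrl3 window was 75.3% G and C and held 2 GC boxes (GGGCGG, either strand), which 35.7% of 32851 RefSeq windows of the same length contain. The Adgrl2 window was 38% G and C and held 1 TATA box (TATAAA, either strand), found in 13.6% of windows. It lies inside the annotated span of Adgrl2, whose 5′ end is at 148990555, so it is not the gene's most upstream annotated start. The Adgrl3 window likewise lies inside the annotated span of Adgrl3, whose 5′ end is at 81020138. The Flrt3 window was 51.3% G and C and held no match to the 5 motifs searched, which also included the cAMP response element (TGACGTCA, in 1.79% of windows), the E-box (CACGTG, in 7.15%) and the AP-1 site (TGANTCA, in 7.81%). No motif was shared by the 3 windows. These are matches of letters in 1 window per gene.

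Per length of exons, Adgrl1 was by far the most abundant of the 10 genes. Levels are given here as RPKM, that is, CPM per kilobase of the union of annotated exons. Adgrl1 averaged 68.17 RPKM over the 20 mice, followed by Flrt3 with 10.66, Tenm3 with 9.465, Flrt2 with 8.675, Tenm4 with 8.257, Adgrl2 with 8.079, Tenm2 with 6.639, Adgrl3 with 5.322, Flrt1 with 4.684 and Tenm1 with 4.002 RPKM. The lowest Adgrl1 value, 59.11 RPKM, lay above the highest Flrt3 value, 11.96 RPKM. All other neighbours in this order overlapped in range, and Flrt2 exceeded Tenm4, and Tenm4 exceeded Adgrl2, in only 11 of 20 mice. Exons counted in the union but not used in striatum lower such values, so the order is of these exon models.

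**Figure D1:**
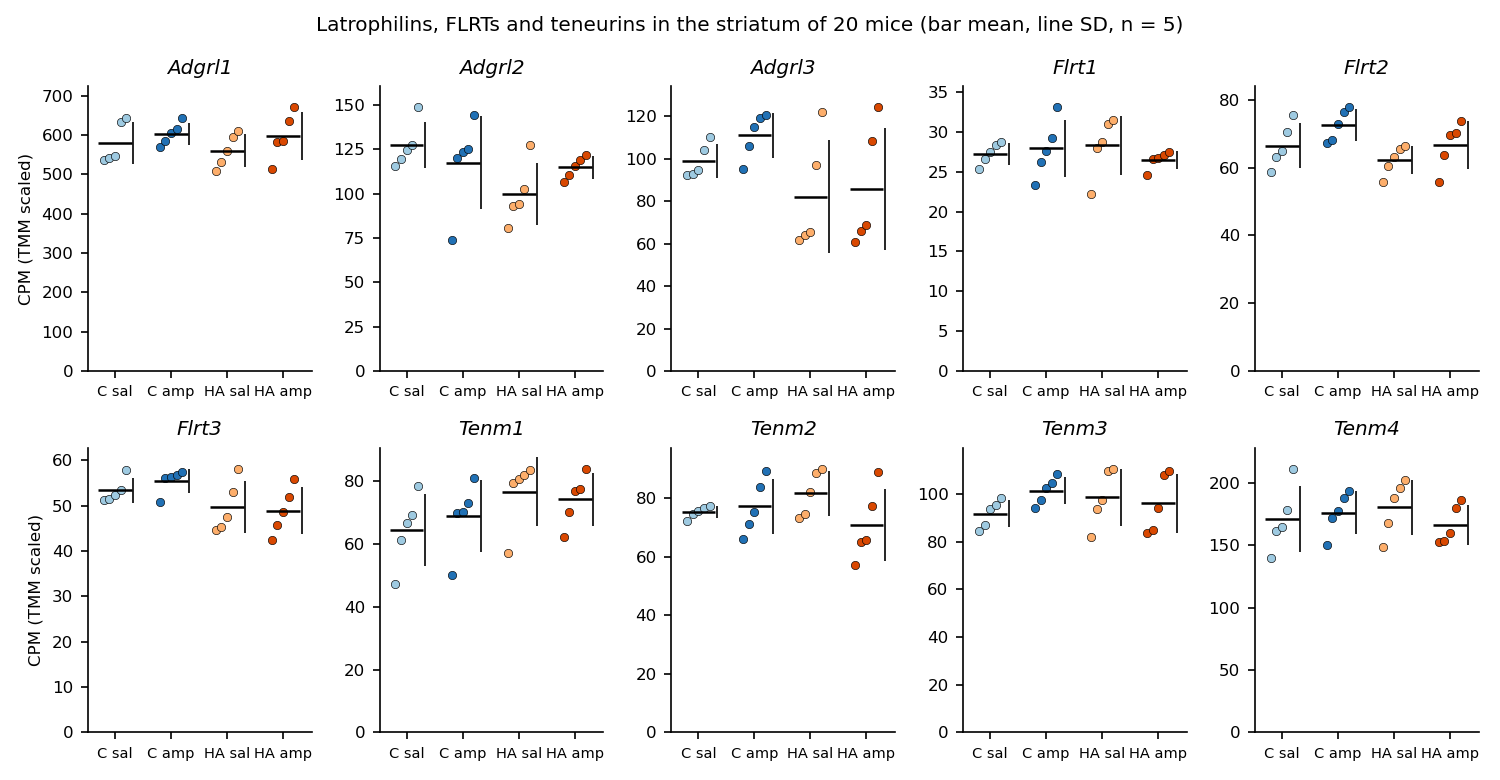
TMM-scaled CPM of the 10 genes in each mouse, for Control (C) and High-Active (HA) mice given saline (sal) or amphetamine (amp); points are mice, horizontal bars group means and vertical lines SD (n = 5). Adgrl3 splits within both High-Active groups, with values of 60.79 to 69.03 CPM and of 96.91 to 124.4 CPM, and the groups overlap for every gene.

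The genotype comparison asked whether the lines differed in the level of these receptors and ligands. The lines had no replicate lines, so selection and random genetic drift, which the paper also names, cannot be told apart. None of the 10 genes passed an adjusted p of 0.10 for High-Active against Control mice in edgeR's quasi-likelihood test, against 14.7% of all genes tested, and 2 of them, Adgrl3 and Flrt3, had an unadjusted p under 0.05, against 26.3% of all genes. With DESeq2 1 of the 10 passed, Flrt3, where 2810 of all 14792 genes did. With edgeR's likelihood-ratio test on robust dispersions 3 passed, Adgrl2, Adgrl3 and Flrt3, where 2261 of all 14792 genes did. The difference was negative in 8 of 10 genes and in 50.7% of all genes, with a median log2 difference of -0.02 over the 10 genes and -0.0019 over all genes. The lines overlapped in range for each of the 10 genes, and 0.284% of all genes had lines that did not overlap.

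Adgrl3 encodes the latrophilin whose best known ligand is FLRT3. Its CPM values were 92.16, 93.01, 94.86, 104.3 and 110.3 in Control saline mice and 95.17, 105.9, 114.9, 119.2 and 120.6 in Control amphetamine mice. In High-Active saline mice they were 61.63, 64.22, 65.73, 96.91 and 122.1, and in High-Active amphetamine mice 60.79, 65.95, 69.03, 108.3 and 124.4. Within each High-Active group 3 mice were lower than any Control mouse and 2 lay within or above the Control range. The lines averaged 105 CPM ± 10.97 (SD, n = 10) in Control and 83.9 CPM ± 26.14 (SD, n = 10) in High-Active mice. The log2 difference was -0.32 ± 0.14 (SE, 95% interval -0.613 to -0.029), with an adjusted p of 0.1515 in edgeR's quasi-likelihood test, so the mean difference did not pass. It passed without High-Active mouse 483 (-0.41, adjusted p = 0.04993, edgeR) or 905 (-0.41, adjusted p = 0.06154, edgeR). It also passed with the likelihood-ratio test (-0.48, adjusted p = 0.0002114, edgeR). With counts summed over all mice of the same parents, a setting added after seeing the data, it passed as well (-0.32, adjusted p = 0.06858, edgeR). It did not pass with full siblings summed within each group (-0.29, adjusted p = 0.2337, edgeR) or with family as a random block (adjusted p = 0.1086, limma-voom). With the cortical and oligodendrocyte scores as covariates the difference was -0.23 with an adjusted p of 0.5805 (edgeR). The thalamus and septum, astrocyte and medium spiny neuron scores were not used as covariates. A gene with at least 6 High-Active mice under the whole Control range was found in 4.64% of all genes tested.

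The 10 High-Active mice thus fell into a lower set of 6 mice at 60.79 to 69.03 CPM and an upper set of 4 mice at 96.91 to 124.4 CPM. The gap between the sets was 0.489 on the log2 scale out of a range of 1.032, whereas the largest gap among Control mice was 0.132 out of a range of 0.388. The lower set held 3 saline and 3 amphetamine mice and the upper set 2 of each. All 4 High-Active families with more than 1 mouse had mice in both sets, so siblings of the same parents differed. In the family of 3, siblings had 64.22, 65.73 and 108.3 CPM.

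Tissue markers moved with Adgrl3 in High-Active mice. In order of Adgrl3 from 60.79 to 124.4 CPM, the 10 mice had thalamus and septum scores (mean log2 CPM of the 6 markers) of 5.04, 5.12, 4.75, 4.34, 5.02, 3.50, 3.79, 3.64, 3.98 and 3.55, with 3.41 to 4.26 in Control mice. The 5 High-Active scores above the Control range were all of mice with Adgrl3 below its Control range, and the other mouse with low Adgrl3 scored 3.50. Astrocyte scores in the same order were 7.24, 7.16, 7.47, 7.07, 7.09, 7.02, 7.04, 7.05, 6.85 and 6.88, with 6.85 to 7.10 in Control mice, so 3 scores above the Control range belonged to the 3 mice with the least Adgrl3. Of the 6 High-Active mice whose medium spiny neuron score lay under the Control range, 5 were among those with low Adgrl3. The 5 choroid plexus markers summed to 16.02 to 707.1 CPM in Control and 25.67 to 877.2 CPM in High-Active mice. How much of the split of Adgrl3 these markers carry was not tested.

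**Figure D2:**
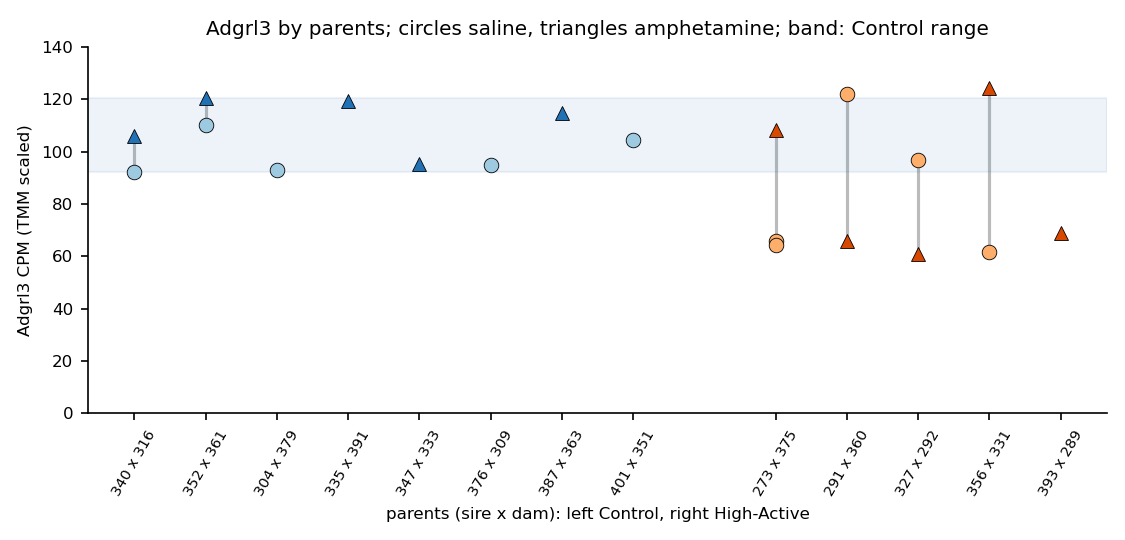
Adgrl3 CPM of each mouse by its parents (sire x dam), 8 Control families on the left and 5 High-Active families on the right; circles are saline and triangles amphetamine mice, grey lines join full siblings and the band is the Control range of 92.16 to 120.6 CPM. In all 4 High-Active families with more than 1 mouse, siblings fall on both sides of the band's lower edge.

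The spread between mice was compared across all genes as the absolute deviation of each mouse's log2 CPM from its group mean, with limma. Adgrl3 deviated more in High-Active mice, by 0.31 ± 0.05 (SE) on the log2 scale (adjusted p = 0.005148, limma), and ranked 30th of 14792 genes. It was the only 1 of the 10 genes called, against 1.51% of all genes. The SD of its log2 CPM was 0.1502 in Control and 0.4274 in High-Active mice. The call was kept without any single mouse, with an adjusted p of at most 0.08232, but with deviations from group medians the adjusted p was 0.9987 and 0 of 14792 genes passed. Unadjusted p-values of this test were somewhat too small on simulated data. Flrt3 and Tenm3 deviated more in High-Active mice by 0.08 each, with adjusted p of 0.2378 and 0.2873 (limma).

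Adgrl2, a latrophilin that binds both FLRTs and teneurins, was 119.6, 124.6, 115.4, 127.6 and 148.7 CPM in Control saline and 125.3, 144.2, 120.1, 73.93 and 123.3 CPM in Control amphetamine mice. In High-Active mice it was 93.98, 127.4, 93.08, 80.6 and 102.7 CPM after saline and 115.6, 106.4, 118.9, 110.6 and 121.9 CPM after amphetamine. Of 10 High-Active mice 9 lay below the Control median, and the lowest value of all was Control mouse 454. The log2 difference between the lines was -0.19 ± 0.10 (SE) with an adjusted p of 0.207 (edgeR). Without mouse 454 it was -0.26 with an adjusted p of 0.03762, and without High-Active mouse 483 it was -0.24 with an adjusted p of 0.09149.

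Adgrl1 averaged 591.7 CPM ± 42.07 in Control and 579.1 CPM ± 52.97 in High-Active mice (SD, n = 10 each). Its log2 difference of -0.03 had a 95% interval of -0.14 to 0.076, so a difference beyond these bounds was not seen for the most abundant latrophilin. Across mice, after centring on group means, Adgrl1 ran with the cortical marker score (r = 0.696) and against the thalamus and septum score (r = -0.734, n = 20 mice from 13 families, with shared dissection), a description only.

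Among the ligands, Flrt3, the FLRT known to bind ADGRL3 across the synapse, differed most by its test. It was 51.32, 51.58, 52.47, 53.53 and 57.92 CPM in Control saline and 50.75, 56.11, 56.23, 56.72 and 57.44 CPM in Control amphetamine mice. In High-Active mice it was 44.61, 45.4, 47.55, 53.05 and 58.19 CPM after saline and 42.47, 45.7, 48.54, 51.9 and 55.83 CPM after amphetamine. Again 6 High-Active mice were under the whole Control range, while 1 was above it. The log2 difference was -0.14 ± 0.05 (SE, 95% interval -0.253 to -0.029), with an adjusted p of 0.1048 in edgeR's test, just outside the threshold. It passed with DESeq2 (adjusted p = 0.07762) and without any 1 of 5 mice, the High-Active mice 192, 483, 886 and 905 and the Control mouse 407, with adjusted p of 0.08986, 0.03754, 0.08763, 0.05461 and 0.09203 (edgeR). It did not pass with the cortical and oligodendrocyte scores as covariates (-0.13 ± 0.07 SE, adjusted p = 0.4215, edgeR). Nor did it pass with full siblings summed within each group (adjusted p = 0.1657, edgeR) or across treatments (adjusted p = 0.1702, edgeR). Across the 20 centred mice Flrt3 had r of 0.113 with the cortical and -0.04 with the oligodendrocyte score. With the medium spiny neuron, astrocyte and thalamus and septum scores, not used as covariates, r was 0.588, -0.609 and -0.486.

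Flrt2, which also binds UNC5 receptors, averaged 69.52 CPM ± 6.255 in Control and 64.44 CPM ± 5.998 in High-Active mice (SD, n = 10 each). Its log2 difference of -0.11 ± 0.05 (SE) had an adjusted p of 0.2118 (edgeR). With the cortical and oligodendrocyte marker scores as covariates it was -0.0041, and Flrt2 ran against the oligodendrocyte score across centred mice (r = -0.763, n = 20). Flrt1, the least abundant FLRT per length, averaged 27.61 CPM ± 2.592 and 27.4 CPM ± 2.766, a log2 difference of -0.01 with a 95% interval of -0.142 to 0.12.

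The teneurins did not pass either. Tenm1, the X-linked member, averaged 66.71 CPM ± 11.03 in Control and 75.33 CPM ± 9.264 in High-Active mice (SD, n = 10 each), a log2 difference of 0.18 ± 0.10 (SE) with an adjusted p of 0.2558 (edgeR). With the cortical and oligodendrocyte scores as covariates it was 0.0345, and Tenm1 ran against the cortical score across centred mice (r = -0.595, n = 20). Tenm2, Tenm3 and Tenm4 had log2 differences of -0.0019, 0.0133 and -0.0038, with 95% intervals of -0.149 to 0.146, -0.112 to 0.139 and -0.156 to 0.149. Their ranges were wide in both lines, with Tenm4 between 139.7 and 211.5 CPM in Control and between 148.7 and 202.1 CPM in High-Active mice.

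**Figure D3:**
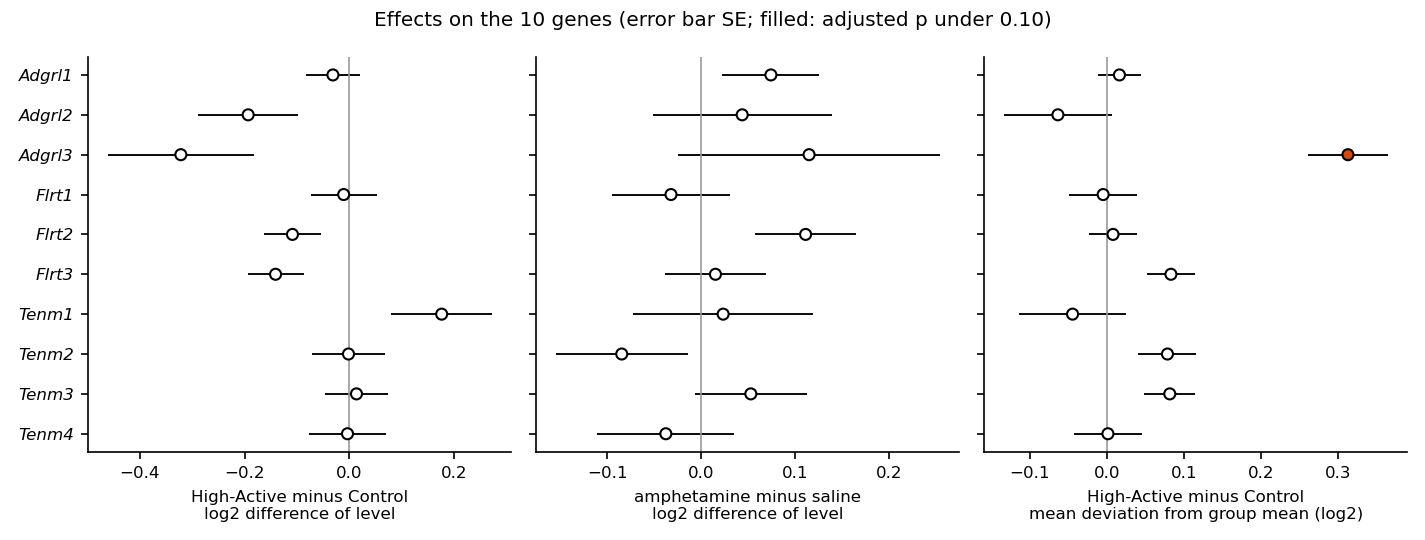
Estimates for the 10 genes with SE bars: the log2 difference of level between lines (left), between treatments (middle) and the line difference of the mean deviation from the group mean (right, log2); filled points have an adjusted p under 0.10. Only the spread of Adgrl3, at 0.31, is filled, and the line difference of Adgrl3, at -0.32, has the widest bar in the left panel.

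The amphetamine comparison asked whether these genes responded within 2 hours. None of the 10 genes passed for amphetamine against saline over both lines, against 0% of all genes tested in edgeR's quasi-likelihood test. None had an unadjusted p under 0.05, against 12.3% of all genes, and none passed with DESeq2, which called 391 genes. The smallest p was that of Flrt2, with a log2 difference of 0.11 ± 0.05 (SE) and an adjusted p of 0.4126 (edgeR). Flrt2 averaged 66.52 and 72.53 CPM in Control mice after saline and amphetamine, and 62.27 and 66.61 CPM in High-Active mice. Adgrl3 had a log2 difference of 0.12 with a 95% interval of -0.177 to 0.407, and Flrt3 one of 0.02 with an interval of -0.096 to 0.127. The 12 cortical excitatory neuron markers had a median log2 difference of 0.81 for amphetamine, and none passed (edgeR). Of them 10 had an unadjusted p under 0.05. Their summed CPM had medians of 723.7 and 1073 in Control mice after saline and amphetamine, and 370.5 and 889.4 in High-Active mice. Flrt2 ran with the cortical score across the 20 centred mice (r = 0.522). How much of the estimates of the 10 genes goes with cortical RNA was not tested.

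The interaction asked whether the lines differed in that response. None of the 10 genes passed, against 0% of all genes, and none had an unadjusted p under 0.05, against 3.02% of all genes (edgeR). With DESeq2 none passed either. The interaction estimates ran from -0.244 for Tenm2 to 0.32 for Adgrl2 on the log2 scale. Adgrl2 averaged 127.2 CPM in Control saline and 117.4 CPM in Control amphetamine mice, against 99.56 and 114.7 CPM in High-Active mice. The 12 cortical markers had a median interaction estimate of 0.79 on the log2 scale, and none passed (edgeR).

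Binding partners and signalling genes of these families formed a list of 25 genes, all of them tested, among them neurexins, UNC5 receptors, G protein subunits and SHANK scaffolds. For genotype, 2 rose and 1 fell in High-Active mice, a share near the 14.7% of all genes called, with a list median of -0.0015 against -0.0019 over all genes. Gna12, a G protein alpha subunit, rose by 0.16 ± 0.05 (SE, adjusted p = 0.05524, edgeR). Unc5c, a netrin receptor, rose by 0.19 ± 0.06 (adjusted p = 0.07106, edgeR), and Unc5a, a receptor of the same family, fell by 0.18 ± 0.06 on the log2 scale (adjusted p = 0.07276, edgeR). None of the 25 passed for amphetamine, where 4 had an unadjusted p under 0.05 against 12.3% of all genes, or for the interaction, where 1 did against 3.02%.

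The other adhesion G protein-coupled receptors formed a list of 19 genes, of which 17 were tested and 2, Adgrg3 and Adgrg7, were too low. For genotype 2 rose and 0 fell, Adgra3 by 0.22 ± 0.06 (SE, adjusted p = 0.04097, edgeR) and Adgrv1, a very large receptor known from hearing, by 0.56 ± 0.19 (adjusted p = 0.07362, edgeR). These 2 of 17 are also near the 14.7% of all genes called, and the list median was 0.0246. None passed for amphetamine or the interaction, where 3 and 2 had an unadjusted p under 0.05 against 12.3% and 3.02% of all genes.

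Receptors and ligands were then compared across mice. Each latrophilin was paired with each of the 7 ligand genes, 21 pairs in all, on log2 CPM centred on the 4 group means, with 100000 permutations of the ligand within groups and Benjamini-Hochberg adjustment over the 21 pairs (two-sided). Of these, 3 pairs had an adjusted p under 0.10, all with Adgrl1, and 17 of 21 coefficients were positive. Within lines 10 of 21 were positive in Control and 18 of 21 in High-Active mice. No such share was computed over other pairs of genes. Because the High-Active mice fell into separate sets for Adgrl3, no coefficient over all mice is given for its 7 pairs, none of which passed.

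Adgrl1 ran with Flrt1 (r = 0.594, p = 0.00073, adjusted p = 0.01533, rho = 0.672, rho p = 0.00134, rho adjusted p = 0.01921, n = 20, permutation test), and without the 2 mice farthest from the Adgrl1 median r was 0.547. The coefficients within lines were 0.623 in Control and 0.576 in High-Active mice. Adgrl1 ran against Tenm1 (r = -0.575, p = 0.00928, adjusted p = 0.08001, rho = -0.708, rho p = 0.00183, rho adjusted p = 0.01921, permutation test), with r of -0.501 without the 2 mice farthest. Adgrl1 ran with Tenm3 (r = 0.627, p = 0.01143, adjusted p = 0.08001, rho = 0.635, rho p = 0.00973, rho adjusted p = 0.06811, permutation test), with r of 0.647 without the 2 mice farthest. In these 3 pairs the sign was the same in both lines.

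Marker scores and families moved with these coefficients. With the cortical and oligodendrocyte scores regressed out, r was 0.714 for Adgrl1 with Flrt1, -0.377 for Adgrl1 with Tenm1 and 0.789 for Adgrl1 with Tenm3, and the pair with Tenm1 no longer passed (adjusted p = 0.3678, permutation test). Averaged over mice of the same parents, r was 0.570, -0.460 and 0.453, and none of the 21 pairs passed. The call of Adgrl1 with Flrt1 was kept without any single mouse, while those of Tenm1 and Tenm3 were lost without any 1 of 11 and of 14 mice. Over 5 alternative settings, family means and marker scores among them, the call was lost in 2 for Flrt1, 4 for Tenm1 and 1 for Tenm3. The thalamus and septum and striatal interneuron scores were not among those regressed out. Across the 20 centred mice Adgrl1 had r of -0.734 and -0.645 with them.

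**Figure D4:**
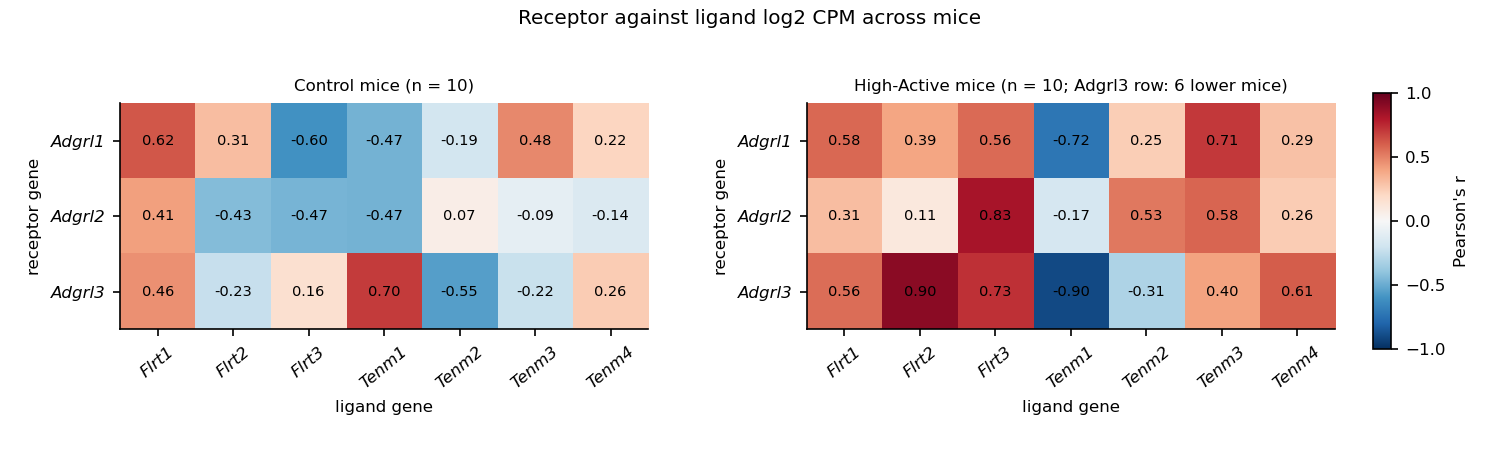
Pearson's r of log2 CPM between each receptor gene (rows) and ligand gene (columns) in 10 Control mice (left) and 10 High-Active mice (right), on values centred on group means; the Adgrl3 row on the right uses only the 6 High-Active mice of its lower set, without centring by treatment. Adgrl2 with Flrt3 is -0.47 on the left and 0.83 on the right, and Adgrl3 with Tenm1 is 0.70 and -0.90.

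Adgrl2 and Flrt3 varied together in High-Active mice (r = 0.826, p = 0.00104, adjusted p = 0.02184, rho = 0.939, rho p = 0.00076, rho adjusted p = 0.01596, n = 10, permutation test), and r was 0.922 without the 2 mice farthest from the Adgrl2 median. The High-Active mouse with 80.6 CPM of Adgrl2 had 45.4 CPM of Flrt3 and the one with 127.4 CPM had 58.19 CPM. In Control mice r was -0.468 (p = 0.2182, adjusted p = 0.5091, rho = -0.418, rho p = 0.2088, rho adjusted p = 0.4592, n = 10, permutation test), and -0.406 without the 2 mice farthest. The difference between the lines had a p of 0.0016 and an adjusted p of 0.022 over the 14 pairs with Adgrl1 or Adgrl2 when line labels were permuted (100000 permutations). This test was chosen after the coefficients were seen. Exchanging mice between lines also assumes an equal spread, and the SD of Flrt3 log2 CPM was 0.07333 in Control and 0.1497 in High-Active mice. Leaving out mouse 415, 483, 499, 883, 886 or 905 raised the adjusted p to 0.1936, 0.2159, 0.1204, 0.2239, 0.1074 and 0.1114 (permutation test), so the call was lost in each case. In Control mice alone none of 21 pairs passed. In High-Active mice this pair was the only 1 of the 14 pairs with Adgrl1 or Adgrl2 to pass by Pearson's r. By rho Adgrl1 with Tenm1 passed there too (rho = -0.855, rho p = 0.0032, rho adjusted p = 0.0336, n = 10, permutation test). Across the 20 centred mice Adgrl2 and Flrt3 both ran against the astrocyte score (r = -0.661 for Adgrl2 and -0.609 for Flrt3). Both ran with the medium spiny neuron score (r = 0.467 and 0.588). The mouse with 80.6 CPM of Adgrl2 had an astrocyte score of 7.47, the one with 127.4 CPM had 6.85. Of the 10 High-Active mice 9 had a full sibling. Within this line the pair of Adgrl2 and Flrt3 was not tested over family means or with marker scores regressed out.

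**Figure D5:**
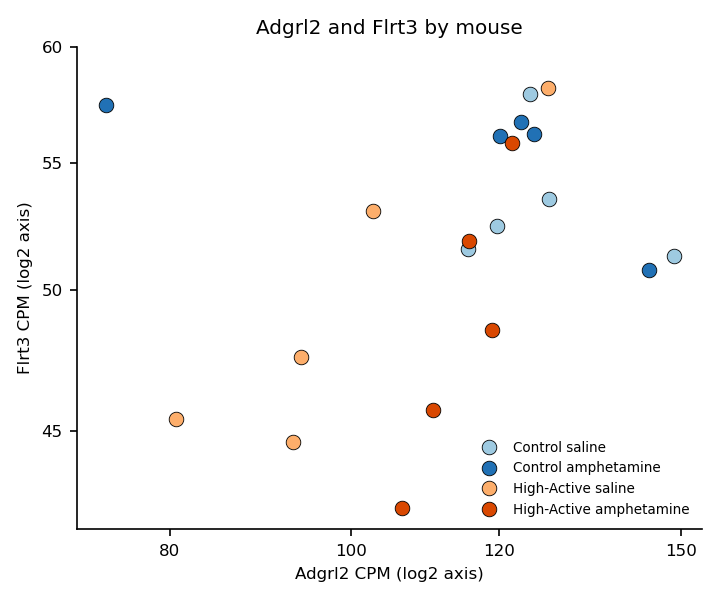
Flrt3 CPM against Adgrl2 CPM of each of the 20 mice, both on log2 axes, coloured by group. The High-Active mice with the least and the most Adgrl2, at 80.6 and 127.4 CPM, have 45.4 and 58.19 CPM of Flrt3. The lowest Flrt3 value, 42.47 CPM, is of a High-Active mouse with 106.4 CPM of Adgrl2. The Control mouse with 73.93 CPM of Adgrl2 has 57.44 CPM of Flrt3. Values are plotted without centring on group means.

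Adgrl3 was examined within Control mice and within the lower High-Active set, whose 6 mice were chosen by their Adgrl3 level after the data were seen. Over all 10 High-Active mice none of its 7 pairs passed, with adjusted p of 0.4323 for Tenm1, 0.5868 for Flrt2 and 0.1344 for Flrt3 (permutation test). With Flrt3 its r was 0.157 in Control mice (p = 0.701, adjusted p = 0.7748, rho = 0.176, rho p = 0.6517, rho adjusted p = 0.853, n = 10, permutation test) and 0.62 without the 2 mice farthest from the Adgrl3 median. In the lower set it was 0.729 (rho = 0.771, n = 6, exact permutation test p = 0.1, rho p = 0.1028, adjusted p = 0.2333 over 7 pairs). With Tenm1 its r was 0.697 in Control mice (p = 0.04081, adjusted p = 0.4285, rho = 0.624, rho p = 0.07768, rho adjusted p = 0.3475, n = 10, permutation test) and 0.742 without the 2 mice farthest. In the lower set it was -0.901 (rho = -1, n = 6, exact permutation test p = 0.0014, the smallest possible, rho p = 0.0028, adjusted p = 0.0097 over 7 pairs). The 6 mice came from 5 families and spanned only 60.79 to 69.03 CPM of Adgrl3, and the difference from Control mice was not tested. With Flrt2 its r was 0.902 in the lower set (rho = 0.829, n = 6, exact permutation test p = 0.0153, rho p = 0.0583, adjusted p = 0.0535 over 7 pairs) and -0.232 in Control mice (p = 0.5181, adjusted p = 0.7207, rho = -0.212, rho p = 0.5832, rho adjusted p = 0.853, n = 10, permutation test). The upper set of 4 mice was too small for a coefficient.

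The genes most like Adgrl3 across the 20 centred mice were Elmod1 (r = 0.831), Akap5 (r = 0.802), Tlk1 (r = 0.798), Ahctf1 (r = 0.797) and Atrip (r = 0.795). They are the highest of all other genes tested, a description with no test, and the High-Active mice enter it with their split. The genes most like Flrt3 were ENSMUSG00000096808 (r = 0.864), Filip1 (r = 0.862), Lrp1b (r = 0.837), Adgrb3 (r = 0.834) and Smpdl3b (r = 0.834). Adgrb3 is another adhesion G protein-coupled receptor, its line difference was -0.03, and it did not pass.

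The labels also give the distance each mouse ran in the home cage at re-phenotyping, 0.1998 to 0.4742 km/day in Control mice. Flrt3 was lower in Control mice that ran farther (r = -0.705, p = 0.01, adjusted p = 0.0299, rho = -0.806, rho p = 0.0069, rho adjusted p = 0.0208, n = 10, permutation test, 3 relations), with r of -0.626 without the 2 mice farthest from the median distance. In High-Active mice r was 0.271 (p = 0.5001, adjusted p = 0.7502, rho = -0.067, rho p = 0.8663, rho adjusted p = 0.8663, n = 10, permutation test) and -0.127 without the 2 mice farthest, and the difference between the lines was not tested. For Adgrl3 in Control mice r was 0.077 (p = 0.8433, adjusted p = 0.8433, rho = -0.164, rho p = 0.6584, rho adjusted p = 0.8663, n = 10, permutation test) and -0.410 without the 2 mice farthest. These 3 relations were chosen after seeing the data, and each took saline and amphetamine mice together without centring on treatment.

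Reads could be shared with other genes in few places. Of all 100-base stretches of the annotated transcripts, 7.33% of those of Adgrl3 also occur in Gm16054, an antisense gene with 60 counts over all mice, and 7.66% of those of Tenm1 in Sh2d1a, with 23 counts. For Adgrl1 the share was 4.98%, for Tenm4 3.69%, for Adgrl2 0.653%, for Tenm3 0.153% and for Tenm2 and the FLRTs 0%. Flrt3 lies inside Macrod2 and Flrt1 inside Macrod1 on the opposite strand, without shared exon bases.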

How the data were processed

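Striatal RNA of 20 mice was made into stranded TruSeq libraries and read as 100 bp pairs. Per the labels, the authors used CASAVA 1.8.2, TopHat2 2.0.10 with Bowtie2 2.1.0 and SAMtools 0.1.19, the GRCm38 genome, and HTSeq 0.6.1; the strand setting is not given in the sources used here. The authors deposited raw counts per Ensembl gene. Rows naming no gene held 16% to 17.5% of counts and were left out. Members and lists were chosen with earlier results of these data known. Genes over 1 CPM in at least 3 mice were scaled by TMM and fitted with a mean per group (edgeR 4.0.16, quasi-likelihood test, threshold 0.10). Spread was tested with limma 3.58.1 and log2 CPM used a prior count of 2. Alternatives used DESeq2 1.42.0, other normalization, filters, family blocks from the parents in the labels, marker scores and left-out mice. Named genes were all members, list genes past the threshold (at most 8 per list) and the 5 genes most like Adgrl3 and Flrt3. Exon lengths and positions come from GENCODE for GRCm38. The comparison of coefficients between lines, the look within the lower Adgrl3 set and the distance relations were chosen after seeing the data. The quasi-likelihood, spread and correlation tests were run on simulated data, where the spread test recovered few of its changed genes after adjustment and its unadjusted p-values were somewhat too small. Tests measure only the spread between these mice.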

Additional observations from a re-analysis of the deposited data

Results flagged for a closer look

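Among 40 sets of 5 mice, 4 held a mouse far from the others by Dixon's test, where chance flags about 1 in 20. Adgrl2 was 73.93 CPM in Control amphetamine mouse 454, with 120.1 to 144.2 CPM in the other 4. Flrt1 was 24.56 CPM in High-Active amphetamine mouse 415, with 26.6 to 27.43 CPM in the others. Flrt3 was 50.75 CPM in Control amphetamine mouse 407, with 56.11 to 57.44 CPM in the others. Tenm1 was 57.05 CPM in High-Active saline mouse 886, with 79.36 to 83.47 CPM in the others. The correlation of Adgrl2 with Flrt3 differed between the lines with an adjusted p of 0.022 (permutation test). That test was chosen after the coefficients were seen, and its call was lost without any 1 of 6 mice.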

How the results depend on the processing

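The number of the 10 genes called for genotype was 0, but 1 with DESeq2, 3 with edgeR's likelihood-ratio test, 1 with counts summed over all mice of the same parents (added after seeing the data) and 0 to 3 without single mice. All genes called for genotype numbered 2178, with 2810 by DESeq2 and 2261 by the likelihood-ratio test. They numbered 401 with marker covariates, 501 in saline mice, 117 in amphetamine mice, 600 with counts summed by parents and 1381 to 2535 without single mice (fewest without 415, 883 and 871, at 1381, 1400 and 1405). For amphetamine, 391 genes were called with DESeq2, 466 with the likelihood-ratio test and 0 to 339 without single mice. For the interaction it was 6 with the likelihood-ratio test and 0 to 1 without single mice. For spread, 223 genes were called, 0 with deviations from group medians and 174 to 424 without single mice, and Adgrl3 was the 1 member called in each of these last. Pairs called were 3, but 0 over family means and 1 to 6 without single mice.

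The signs that turned were of differences that did not pass. For genotype these were, with marker covariates, Adgrl1 at 0.0712, Flrt1 at 0.0294 and Tenm4 at 0.0148, with the likelihood-ratio test Flrt1 at 0.0077 and Tenm4 at 0.0132, in saline mice Flrt1 at 0.0535, Tenm2 at 0.1202 and Tenm4 at 0.0766, in amphetamine mice Tenm3 at -0.0775, with counts summed by parents and group Tenm2 at 0.0140, and with counts summed by parents Tenm4 at 0.0243. For amphetamine they were, with marker covariates, Adgrl1 at -0.0359, Flrt3 at -0.0004 and Tenm4 at 0.0268, in Control mice Adgrl2 at -0.1165, Flrt1 at 0.0320, Tenm2 at 0.0372 and Tenm4 at 0.0423, and in High-Active mice Flrt3 at -0.0283, Tenm1 at -0.0492 and Tenm3 at -0.0418. The spread of Tenm4 turned with group medians, at -0.0056. Without single mice, the genotype difference ran from -0.0382 to 0.0266 for Flrt1, -0.0493 to 0.0314 for Tenm2, -0.0117 to 0.0427 for Tenm3 and -0.0366 to 0.0405 for Tenm4, and the amphetamine difference from -0.0113 to 0.0453 for Flrt3, -0.0226 to 0.069 for Tenm1 and -0.0675 to 0.0096 for Tenm4. The spread ran from -0.1065 to 0.0278 for Adgrl2, -0.0421 to 0.0171 for Flrt1, -0.0246 to 0.026 for Flrt2, -0.1208 to 0.0123 for Tenm1 and -0.0328 to 0.0317 for Tenm4. The cause of these changes was not tested. With parents as a replicate block in the 13 mice of 6 families that held both treatments (added after seeing the data), 0 genes were called for amphetamine, with 6.35% at an unadjusted p under 0.05, among them 1 of the 10, Tenm2, and Flrt3 turned to -0.0639. Replicate numbers pair no mice, since the labels number them by animal.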
